A study of Homo sapiens with 24 samples.

Results

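NDUFS6 was knocked down in SH-SY5Y cells, and the 3 knockdown RNA-seq libraries were compared with the 3 libraries of the matching empty vector control. These 6 libraries are 6 of the 24 in the series, and a gene was tested where it reached 1 FPKM (fragments per kilobase of transcript, scaled to the mapped fragments of the library) in at least 3 of the 6, which left 14281 of 60564 genes. The whole series measured RNA in 2 human neuroblastoma lines, SH-SY5Y and SK-N-BE(2), each with NDUFS6 knockdown, NDUFS6 overexpression and an empty vector for each. The SH-SY5Y overexpression cells, their own empty vector (called the overexpression control here) and the SK-N-BE(2) knockdown are used below for comparison. All 24 libraries, in 8 groups, also entered the fit that estimated the spread behind the p-values of single genes.

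The knockdown cells carried a lentiviral short hairpin RNA against NDUFS6, and the control cells carried the empty lentiviral vector. All of these cells, controls included, had been exposed to virus with 5 µg/mL polybrene for 16 hours and selected with 2 µg/mL puromycin starting at 48 hours, for about a week. They were grown in minimum essential medium with 10% serum. The labels call the knockdown line KD-1, and how many hairpins and separate infections stand behind it is not stated in the sources used. The cells are stable selected populations, so direct effects, slow secondary changes and selection during culture cannot be told apart. The 3 libraries of each group are given as biological replicates with no separate cultures named, so the p-values speak only of the spread among them, which could be technical.

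NDUFS6 encodes an accessory subunit of respiratory complex I, the enzyme of the inner mitochondrial membrane that takes electrons from NADH and pumps protons. The subunit carries a zinc-binding site and joins late in the assembly of the arm that holds the electron-accepting centres. SH-SY5Y is a neuroblastoma line without MYCN amplification that expresses neuronal and noradrenergic genes. Neuroblastoma cells are known to occur in an adrenergic state, marked by HAND2 and GATA3, and in a mesenchymal state, marked by vimentin, fibronectin and matrix genes.

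The knockdown libraries stood apart from every other SH-SY5Y library. On the first principal component of the 12 SH-SY5Y libraries, which held 63.8% of the variance, the knockdown libraries lay between -54.1 and -52.1, against 2.21 to 2.88 for their control libraries. Between pairs of libraries, the log2 difference had an SD of 0.194 to 0.212 within the knockdown and 0.175 to 0.176 within the control, and 0.570 to 0.586 between the 2 groups. Knockdown libraries held 13659 to 13734 genes at 1 FPKM or more, and control libraries 13919 to 14018. The FPKM values of a library summed to 272286 to 276091 in the knockdown and 255596 to 257575 in the control. Reads per library are not given, so the depth is unknown and the spread between libraries is the only measure of precision.

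NDUFS6 itself (ENSG00000145494, hg38, chromosome 5, 1801400 to 1816605, plus strand) was at 3.11, 3.98 and 4.98 FPKM in the knockdown libraries, against 11.2, 11.1 and 12.1 FPKM in the control libraries. The groups did not overlap. The means were 4.02 ± 0.939 FPKM in the knockdown and 11.5 ± 0.566 FPKM in the control (SD, n = 3 each), 2.85-fold lower in the knockdown. The log2 change, which here and below is the difference of means of log2(FPKM + 1), was -1.33 (SE 0.118, limma with Benjamini-Hochberg adjustment over all tested genes, adjusted p = 4.9e-09). In the overexpression control NDUFS6 averaged 10.96 FPKM, so both controls held it at about the same level.

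Beyond the target, the knockdown moved a large share of the transcriptome. Of 14281 tested genes, 8551 (59.9%) passed an adjusted p of 0.05, of which 4055 (28.4%) were higher and 4496 (31.5%) were lower in the knockdown. Of these, 1038 (7.27%) also changed at least 2-fold, 409 (2.86%) higher and 629 (4.40%) lower. The median log2 change over all tested genes was -0.01, with the 10th and 90th percentiles at -0.64 and 0.53. With each library scaled to a common sum (written TPM below) the median moved to -0.11, and the calls became 3003 higher and 5445 lower, or 35.5% higher against 47.4% on the FPKM scale. "Rose" and "fell" below mean an adjusted p under 0.05 in this limma fit, and the shares 28.4% and 31.5% are the background for every count of list members that follows. A member at low level can pass the filter through the libraries of 1 group alone and must then differ. Where a list holds more than 1 such member for a group, the count over members that reached 1 FPKM in both groups is given beside the first.

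The leading rises included several genes of secreted proteins. MAB21L2, a developmental nuclear protein, was at 26.2, 25.5 and 21.5 FPKM in the knockdown, against 0.132, 0.0572 and 0.213 FPKM in the control. The control libraries were close to silent for it, and its log2 change was 4.48 (SE 0.0575). LRRC17, a secreted leucine-rich repeat protein, was at 35.5, 35.9 and 35.2 FPKM in the knockdown, against 1.06, 1.36 and 1.26 FPKM in the control, a log2 change of 4.04. HTR2B, a serotonin receptor, was at 14.7, 13.4 and 18.2 FPKM in the knockdown, against 0.497, 0.289 and 0.135 FPKM in the control, a log2 change of 3.65. No knockdown library of these 3 genes overlapped a control library. Such separation was common, with the knockdown wholly higher in 32.3% of tested genes and wholly lower in 35.6%.

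IGFBP3, which binds insulin-like growth factors outside the cell, was at 119, 120 and 124 FPKM in the knockdown, against 9.30, 8.24 and 9.05 FPKM in the control. C7, a complement component, was at 143, 140 and 132 FPKM in the knockdown, against 10.9, 10.5 and 9.89 FPKM in the control. Both were more than an order of magnitude higher in each knockdown library, with log2 changes of 3.63 and 3.61. Other leading rises were KCTD12, a partner of GABA-B receptors, the transcript AC114284.1, DCN (decorin), FNDC5, DKK2, a secreted Wnt modulator, and SMAD6, an inhibitor of BMP signalling, with log2 changes of 2.70 to 3.34. Of FNDC5 the control libraries were uneven, at 0.474, 2.12 and 1.49 FPKM, against 16.4, 16.1 and 14.8 FPKM in the knockdown.

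**Figure D1:**
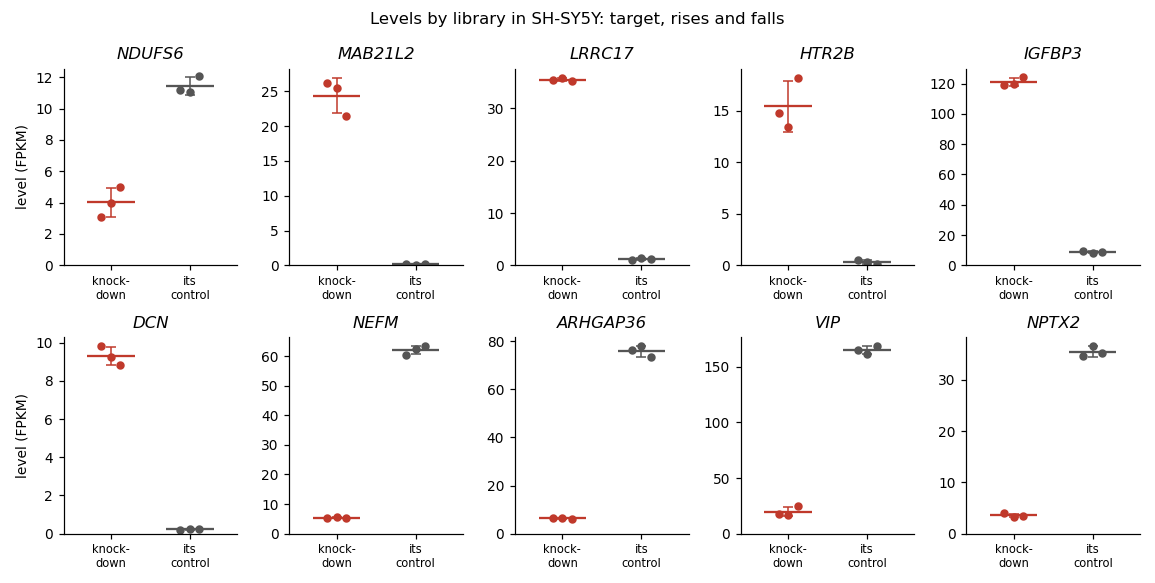
FPKM per library (points) with the mean and SD (bars) for NDUFS6, 5 of the leading rises and 4 of the leading falls, knockdown at left and its empty vector control at right, each panel on its own linear axis from 0. In each panel the 3 knockdown libraries lie apart from the 3 control libraries.

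Among the leading falls, H19, an imprinted long non-coding RNA, was at 51.1, 50.7 and 46.5 FPKM in the knockdown, against 534, 532 and 542 FPKM in the control, a log2 change of -3.41. ARHGAP36, which acts on protein kinase A signalling, was at 6.61, 6.33 and 6.23 FPKM in the knockdown, against 76.2, 77.9 and 73.2 FPKM in the control, a log2 change of -3.38. NEFM, the medium neurofilament chain, was at 5.31, 5.55 and 5.32 FPKM in the knockdown, against 60.5, 62.3 and 63.4 FPKM in the control, a log2 change of -3.30. Every knockdown library was below every control library for these 3 genes.

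VIP, a neuropeptide, was at 18.1, 16.7 and 24.8 FPKM in the knockdown, against 165, 162 and 169 FPKM in the control. NPTX2, a secreted synaptic pentraxin, was at 3.95, 3.35 and 3.51 FPKM in the knockdown, against 34.8, 36.7 and 35.2 FPKM in the control. Their log2 changes were -3.02 and -2.99. The other leading falls were SLIT1, ELAVL3, HOXD10, BEND4, AP001065.1, BASP1 and CADM3, with log2 changes of -3.09 to -2.88. H19 shares exons with MIR675, SLIT1 with ARHGAP19-SLIT1, ELAVL3 with AC008481.3, HOXD10 with HOXD11 and CADM3 with ACKR1 in GENCODE, so how reads were divided between these pairs is uncertain.

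4 genes averaged under 0.5 FPKM in the control and at least 5 FPKM in the knockdown, namely MAB21L2, HTR2B, DCN and BMPER, the last a secreted BMP-binding protein at 5.36 ± 0.293 FPKM in the knockdown and 0.374 ± 0.0370 FPKM in the control. 5 genes did the reverse, namely SLIT1, HOXD10, AP001065.3, CKMT1B and CKMT1A. The last pair encode the ubiquitous mitochondrial creatine kinase from near-identical copies, so their separate values of 0.452 and 0.385 FPKM in the knockdown, against 5.50 and 5.17 FPKM in the control, are uncertain, while both fell.

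The other subunits of complex I changed little. Of 36 other nuclear-encoded subunits, all tested, 3 rose and 9 fell, with a median log2 change of -0.07 and a range of -0.49 to 0.28, and no change reached 2-fold. NDUFB4 was the furthest below its control, at 22.7 FPKM in the knockdown and 32.2 FPKM in the control (log2 change -0.49), and NDUFA6 the furthest above, at 8.33 FPKM in the knockdown and 6.69 FPKM in the control (0.28), though it was not called against the overexpression control (0.05, adjusted p = 0.554). The count of falls depended on scaling, with 18 under TPM. Against the overexpression control 2 were higher and 15 lower, where 28.5% and 33.3% of all genes were called in these directions. Of 16 assembly factors, 3 rose and 6 fell. ECSIT, an assembly factor that also acts in innate signalling, fell most, to 6.80, 4.47 and 6.35 FPKM in the knockdown, against 11.7, 12.0 and 9.56 FPKM in the control (log2 change -0.82), and shares exons with ZNF653.

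Protein-coding transcripts of the mitochondrial genome were higher in the knockdown. Over all 37 tested genes of that genome 17 rose and 6 fell. Of 22 tested mitochondrial tRNA genes, 5 rose and 4 fell. Of the 13 mitochondrially encoded subunits of the respiratory chain and ATP synthase, 12 rose and none fell, with a median log2 change of 0.55 (0.45 under TPM). MT-CYB, cytochrome b of complex III, was at 4635, 4366 and 4418 FPKM in the knockdown, against 1932, 1916 and 1980 FPKM in the control, a log2 change of 1.20 (SE 0.0363, limma adjusted p = 1.76e-16). MT-ND2, a complex I subunit, was at 3964, 3615 and 3690 FPKM in the knockdown, against 2165, 2221 and 2271 FPKM in the control, a log2 change of 0.76. For both genes the groups were far apart compared with the spread within them. MT-CO1, the catalytic subunit of complex IV, was up the least of those called, with a log2 change of 0.17, and was not called under TPM (0.07, adjusted p = 0.0695). MT-ND4L was not called (0.27, adjusted p = 0.0926) but was in a fit of the 6 libraries alone (adjusted p = 0.00229) and against the overexpression control (0.41, adjusted p = 0.0122), where all 13 were higher. It overlaps MT-ND4, as MT-ATP8 does MT-ATP6, so their separate values are uncertain.

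Genes of the mitochondrial genome made up 38.1%, 36.5% and 36.3% of the FPKM sum in the knockdown, against 31.2%, 30.8% and 31.4% in the control. The difference of 5.82 percentage points had an exact two-sided permutation p of 0.1, the smallest that 3 against 3 libraries can give. The share was 30.3% ± 0.347 in the overexpression control (SD, n = 3). Of 18 tested nuclear genes that copy, transcribe or stabilise mitochondrial DNA and RNA, 2 rose and 6 fell. TFAM, which packages mitochondrial DNA, was at 10.2 FPKM in the knockdown and 12.4 FPKM in the control (log2 change -0.26), and TFB1M, a mitochondrial rRNA methyltransferase, at 2.86 FPKM in the knockdown and 5.00 FPKM in the control (-0.64).

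Genes of the neuronal cytoskeleton were lower in the knockdown. Of 17 tested members of a list of neurofilaments, neuronal tubulins, kinesins and microtubule proteins, 15 fell and 1 rose, with a median log2 change of -1.39, and 12 fell at least 2-fold. KIF1A, an axonal motor for synaptic vesicle precursors, was at 1.81, 2.06 and 1.63 FPKM in the knockdown, against 18.97, 19.4 and 19.4 FPKM in the control (log2 change -2.84). INA, alpha-internexin, was at 4.67, 4.68 and 3.86 FPKM in the knockdown, against 37.4, 37.8 and 36.1 FPKM in the control (-2.82). TUBB2B, a neuronal beta-tubulin with close paralogs, was at 29.5, 32.6 and 30.5 FPKM in the knockdown, against 187, 190 and 188 FPKM in the control (-2.57). In these genes every knockdown library lay far below every control library, while DPYSL3, an axonal growth protein, rose (1.05) and MAP1B was not called (0.14, adjusted p = 0.474), though it was in a fit of the 6 libraries alone (adjusted p = 0.019).

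The 3 neurofilament chains NEFL, NEFM and NEFH all fell, as did DCX, MAPT, GAP43 and MAP2. STMN2, the most abundant of the list, averaged 229 FPKM in the knockdown and 334 FPKM in the control, a log2 change of -0.54. Neuronal RNA-binding proteins, which direct splicing and stability of neuronal transcripts, followed, with 7 of 9 tested members lower and 1 higher and a median of -1.05. Of the 7 that reached 1 FPKM in both groups, 5 were lower and 1 higher. ELAVL3 averaged 4.99 FPKM in the knockdown and 47.9 FPKM in the control, and ELAVL2 0.955 FPKM in the knockdown and 8.10 FPKM in the control. ELAVL4, the family member at the highest level, rose instead, with 58.1 FPKM in the knockdown and 43.7 FPKM in the control (0.40), but was lower than in the overexpression control (-0.08, adjusted p = 0.021).

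Genes of the regulated secretory pathway were lower too. Of 13 tested members, 12 fell and none rose, with a median log2 change of -1.55 and 9 at least 2-fold lower. SCG3, a granin that sorts cargo into dense-core granules, was at 3.50, 4.06 and 3.56 FPKM in the knockdown, against 29.1, 29.8 and 31.9 FPKM in the control (-2.73). CHGA, chromogranin A, was at 13.2, 13.4 and 10.5 FPKM in the knockdown, against 63.1, 67.4 and 64.5 FPKM in the control (-2.31). Besides VIP, the neuropeptide genes GAL and NPY fell, with log2 changes of -2.73 and -1.39. SCG5 was not called (-0.27, adjusted p = 0.0942), but was without the third knockdown library (-0.49, adjusted p = 0.000611).

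Of 23 tested genes of synaptic vesicles and their release, 18 fell and 1 rose, with a median of -1.26. The count was 12 lower and 1 higher of the 17 that reached 1 FPKM in both groups. SYP, synaptophysin, was at 1.61, 1.74 and 1.61 FPKM in the knockdown, against 11.4, 11.4 and 11.3 FPKM in the control (-2.22). SNAP25, a subunit of the fusion complex, was at 5.29, 4.97 and 4.29 FPKM in the knockdown, against 27.4, 29.6 and 26.5 FPKM in the control (-2.30). The complexins CPLX1 and CPLX2, the priming factor UNC13A and the active zone proteins PCLO and BSN were lower as well. SYN2 went the other way, at 5.86, 6.42 and 5.49 FPKM in the knockdown, against 1.78, 1.78 and 1.77 FPKM in the control (1.31).

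Genes that make and move catecholamines were lower, with 5 of 7 tested members down, all at least 2-fold, and 2 higher. MAOA, a degrading enzyme, was among the higher (0.20), but was not called under TPM (0.12) or against the overexpression control (0.02). The other had a log2 change of 0.59, and 1 member was still called higher under TPM and against the overexpression control. DBH, which turns dopamine into noradrenaline, was at 23.3, 24.6 and 21.3 FPKM in the knockdown, against 125, 135 and 128 FPKM in the control (-2.44). DDC, GCH1, the vesicular transporter SLC18A1 and the noradrenaline transporter SLC6A2 fell, with log2 changes of -1.65 to -1.001. This list already differed between the controls, with a median log2 difference of -0.77 for the knockdown control minus the overexpression control, and the knockdown median was -1.98 against the overexpression control.

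The transcription factors of the adrenergic state went in both directions against the knockdown's own control. Of 17 tested, 5 rose and 7 fell, with a median of -0.07. Against the overexpression control 2 were higher and 12 lower, with a median of -0.34. GATA2 was at 50.9, 55.2 and 49.1 FPKM in the knockdown, against 139, 144 and 144 FPKM in the control (-1.45), and SIX3 fell too (-1.20). TBX2 was at 62.3, 68.3 and 68.9 FPKM in the knockdown, against 17.3, 17.6 and 17.0 FPKM in the control (1.88). HAND2 was at 270, 278 and 272 FPKM in the knockdown and 294, 286 and 290 FPKM in the control, a difference that was not called (-0.08, adjusted p = 0.325) but was under TPM (-0.18, adjusted p = 0.0138) and in a fit of the 6 libraries alone (adjusted p = 0.0128). ISL1 was called higher against its own control (0.76) and was level with the overexpression control (-0.00156, adjusted p = 0.98).

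Axon guidance genes went in both directions, 14 of 21 tested higher and 6 lower, with a median of 0.40 (0.70 against the overexpression control). The ligand SLIT1 fell to 0.396, 0.469 and 0.253 FPKM in the knockdown, against 10.2, 11.1 and 10.7 FPKM in the control. Its receptor ROBO1 was at 32.8, 31.8 and 30.8 FPKM in the knockdown, against 11.8, 11.7 and 11.2 FPKM in the control (1.38). Among netrin receptors, UNC5A was at 1.002, 1.17 and 0.949 FPKM in the knockdown, against 10.3, 12.2 and 10.9 FPKM in the control (-2.57), while UNC5C rose (1.72). PLXNA4, a semaphorin co-receptor, was at 50.3, 49.9 and 42.8 FPKM in the knockdown, against 12.0, 12.8 and 12.5 FPKM in the control (1.85).

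Among voltage-gated and potassium channels, 9 of 15 tested members fell and 5 rose, with a median of -0.97. Of these 7 reached 1 FPKM in both groups, 3 higher and 3 lower. The falls were mostly of genes at low level, since at a mean of at least 5 FPKM 3 members were higher and 1 lower (median 0.79). CACNA1B, the pore of the N-type calcium channel, was at 0.489, 0.629 and 0.446 FPKM in the knockdown, against 3.79, 4.35 and 4.19 FPKM in the control (-1.75). SCN9A, a sodium channel pore, was at 23.4, 23.0 and 22.7 FPKM in the knockdown, against 6.62, 6.63 and 6.38 FPKM in the control (1.67).

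Receptor tyrosine kinases and neurotrophin receptors were 8 higher and 4 lower of 13 tested (median 0.47). EGFR, the epidermal growth factor receptor, was at 17.0, 18.0 and 16.9 FPKM in the knockdown, against 3.55, 3.63 and 3.65 FPKM in the control (1.99). IGF1R rose about 2-fold, with a log2 change of 1.04. The neuroblastoma oncogene ALK was at 7.28, 7.55 and 5.73 FPKM in the knockdown, against 12.6, 13.5 and 12.97 FPKM in the control (-0.84), and RET, the receptor for glial cell line-derived ligands, at 26.2, 25.0 and 28.7 FPKM in the knockdown, against 47.8, 51.9 and 49.0 FPKM in the control (-0.87).

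Genes of the mesenchymal state were higher as a group, but in many of them the knockdown's own control also lay above the overexpression control. Of 19 tested mesenchymal transcription factors and regulators, 11 rose and 4 fell, with a median of 0.36 (1.04 against the overexpression control). Of the 15 that reached 1 FPKM in both groups, 8 rose and 3 fell. YAP1, a coactivator of the Hippo pathway, was at 8.63, 8.13 and 7.79 FPKM in the knockdown, against 2.13, 2.15 and 2.21 FPKM in the control (1.54). SNAI2, a repressor that drives mesenchymal transition, was at 11.4, 12.2 and 12.1 FPKM in the knockdown, against 3.34, 2.98 and 3.13 FPKM in the control (1.64), and SNAI1 rose (1.48). TWIST1 fell, to 58.1, 55.4 and 57.5 FPKM in the knockdown, against 85.0, 77.9 and 78.9 FPKM in the control (-0.49), and so did ZEB1 (-0.47).

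YAP1's transcript rose, yet the listed targets of YAP and TEAD did not move one way. Of 20 tested, 7 rose and 5 fell, with a median of 0.00 that turned to -0.10 under TPM. CCN1, CCN2 and ANKRD1, targets often used as readouts, had log2 changes of -0.07, -0.12 and -0.07, none of them called. Against the overexpression control 13 of the list were higher and 2 lower, CCN1 (2.38) and ANKRD1 (1.18) among the higher. TGFB2 had opposite calls, lower against its own control (-1.30) and higher against the overexpression control (0.47, adjusted p = 1.08e-05).

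Mesenchymal surface, calcium-binding and filament proteins were 15 higher and 2 lower of 19 tested, with a median of 0.77 (1.75 against the overexpression control). VIM, vimentin, was at 436, 443 and 456 FPKM in the knockdown, against 97.7, 93.2 and 98.2 FPKM in the control (2.20), and 35.5, 36.6 and 37.3 FPKM in the overexpression control. S100A11 was at 63.2, 64.5 and 84.6 FPKM in the knockdown, against 13.4, 11.3 and 13.3 FPKM in the control (2.38). TPM1, a tropomyosin, was at 67.2, 69.1 and 78.5 FPKM in the knockdown, against 20.8, 21.8 and 21.3 FPKM in the control (1.70). S100A6 went against the list, at 2.69, 2.68 and 4.39 FPKM in the knockdown, against 14.5, 16.9 and 15.7 FPKM in the control (-2.00). In bulk RNA, fewer cells of a type and less RNA per cell cannot be told apart, nor can more cells and more RNA per cell.

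Of 13 tested collagen genes, 11 rose and 2 fell, with a median of 0.66 against their own control and 1.35 against the overexpression control. COL3A1 was at 159, 161 and 153 FPKM in the knockdown, against 72.5, 71.8 and 70.8 FPKM in the control (1.12), and 11.6, 11.8 and 12.0 FPKM in the overexpression control. COL5A1, at 26.9, 27.5 and 25.3 FPKM in the knockdown, against 13.4, 12.8 and 12.8 FPKM in the control (0.98), and the basement membrane chain COL4A1 (1.02) also rose.

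Of 18 tested proteoglycans and matricellular proteins, 11 rose and 2 fell, with a median of 0.87 (2.29 against the overexpression control). LUM, the collagen-binding proteoglycan lumican, was at 36.8, 35.04 and 32.6 FPKM in the knockdown, against 6.29, 5.20 and 6.17 FPKM in the control (2.38). SPARC, at 99.8, 104 and 99.1 FPKM in the knockdown, against 46.1, 47.1 and 46.3 FPKM in the control, rose (1.10). Fibronectin, FN1, was at 42.7, 40.8 and 42.7 FPKM in the knockdown and 42.5, 41.3 and 41.1 FPKM in the control, a difference that was not called (0.01, adjusted p = 0.92), and TNC was likewise not called (-0.02). Both were higher than in the overexpression control, with log2 differences of 1.94 and 2.22.

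Metalloproteinases and their inhibitors were 8 higher and 5 lower of 17 tested (median 0.09, and 0.00371 under TPM with 8 higher and 7 lower). The overexpression control gave 11 higher and 5 lower, with a median of 1.01. MMP14, a membrane-anchored collagenase, was at 10.9, 10.9 and 10.8 FPKM in the knockdown, against 1.77, 1.43 and 1.25 FPKM in the control (2.26). The inhibitor TIMP1 was at 53.5, 48.4 and 60.4 FPKM in the knockdown, against 12.5, 14.1 and 13.6 FPKM in the control (1.93), while TIMP3 was lower than in its own control (-0.46) and higher than in the overexpression control (1.01). Integrins and cadherins were 10 higher and 4 lower of 16 tested (median 0.42, and 0.86 against the overexpression control), or 8 higher and 3 lower of the 13 that reached 1 FPKM in both groups, led by CDH2, N-cadherin, at 78.7, 74.3 and 94.3 FPKM in the knockdown, against 28.4, 27.1 and 26.8 FPKM in the control (1.55).

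Fibroblast markers overlap these matrix lists, with DCN, LUM and COL3A1 in both, so they are not separate evidence. Of 10 tested, 9 rose, 4 of them at least 2-fold, and 1 fell (-0.41). The median was 0.72, and 1.79 against the overexpression control. The FPKM of all 12 fibroblast markers summed to 294.6 to 306.2 in the knockdown, against 150.4 to 155.3 in the control and 66.2 to 70.1 in the overexpression control. COL3A1, which also stands in the collagen list, was the largest single part of the knockdown sum. PDGFRA and PDGFRB were at 15.9 and 17.6 FPKM in the knockdown and 12.9 and 9.88 FPKM in the control. Their log2 changes were 0.28, not called under TPM, and 0.78. COL1A2 was under 1 FPKM in all 6 libraries and PDPN at 0 in all 6. The part of other cells in the rises of matrix genes was not tested. Schwann cell markers gave 1 tested gene, PMP22, at 14.8 FPKM in the knockdown and 10.5 FPKM in the control, and 9 of the 12 were under 1 FPKM in all 6 libraries.

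The insulin-like growth factor genes changed in both directions, 6 of 11 tested higher and 3 lower. IGF2, the ligand, was at 3.31, 2.97 and 3.06 FPKM in the knockdown, against 29.1, 27.1 and 31.7 FPKM in the control (-2.88), and it shares exons with INS-IGF2. H19 lies beside IGF2 on chromosome 11, and both were about an order of magnitude lower in the knockdown. The binding proteins IGFBP3 and IGFBP5 rose, the second at 113, 112 and 98.1 FPKM in the knockdown, against 27.7, 29.2 and 28.8 FPKM in the control (1.88). The receptors IGF1R and IGF2R rose as well.

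HOX genes, which set position along the body axis, were lower. Of 12 tested, 10 fell and 1 rose, with a median of -1.18 (6 and 1 of the 8 that reached 1 FPKM in both groups), and the 7 falls of at least 2-fold were all of the HOXD cluster on chromosome 2. HOXD10 was at 0.223, 0.359 and 0.182 FPKM in the knockdown, against 8.39, 10.1 and 9.13 FPKM in the control. HOXD9 was at 4.95, 5.22 and 4.99 FPKM in the knockdown, against 18.0, 17.8 and 17.1 FPKM in the control (-1.62), and HOXD8 was close to it in both level and change. Among HOXC genes, HOXC4 fell (-0.86) and HOXC9 rose (0.31), the second a call that was lost without the first control library (0.27, adjusted p = 0.0571) or the second (0.27, adjusted p = 0.0576) and against the overexpression control (0.19, adjusted p = 0.116). Several of these genes share exons with a neighbour, and 18 of the 30 listed HOX genes were under 1 FPKM in all 6 libraries.

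Targets and regulators of BMP signalling were higher, 13 of 15 tested, with 2 lower and a median of 0.78 (1.21 against the overexpression control). The ID proteins, which block basic helix-loop-helix factors and are direct BMP targets, all rose. ID1 was at 97.9, 103 and 118 FPKM in the knockdown, against 28.5, 25.5 and 30.1 FPKM in the control (1.88). ID4 was at 10.5, 11.8 and 13.1 FPKM in the knockdown, against 1.51, 1.53 and 1.48 FPKM in the control (2.34), and ID2 and ID3 had log2 changes of 1.68 and 1.25. Among the SMADs, the transducer SMAD1 and the inhibitors SMAD6 and SMAD7 rose (1.11, 2.70 and 0.93), and SMAD5 fell (-0.26) but was level with the overexpression control (0.03, adjusted p = 0.787). The ligand BMP7 fell (-0.74), while the ligands BMP2 and BMP6 stayed under 1 FPKM and BMP4 and BMP5 were at 0 in all 6 libraries.

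**Figure D2:**
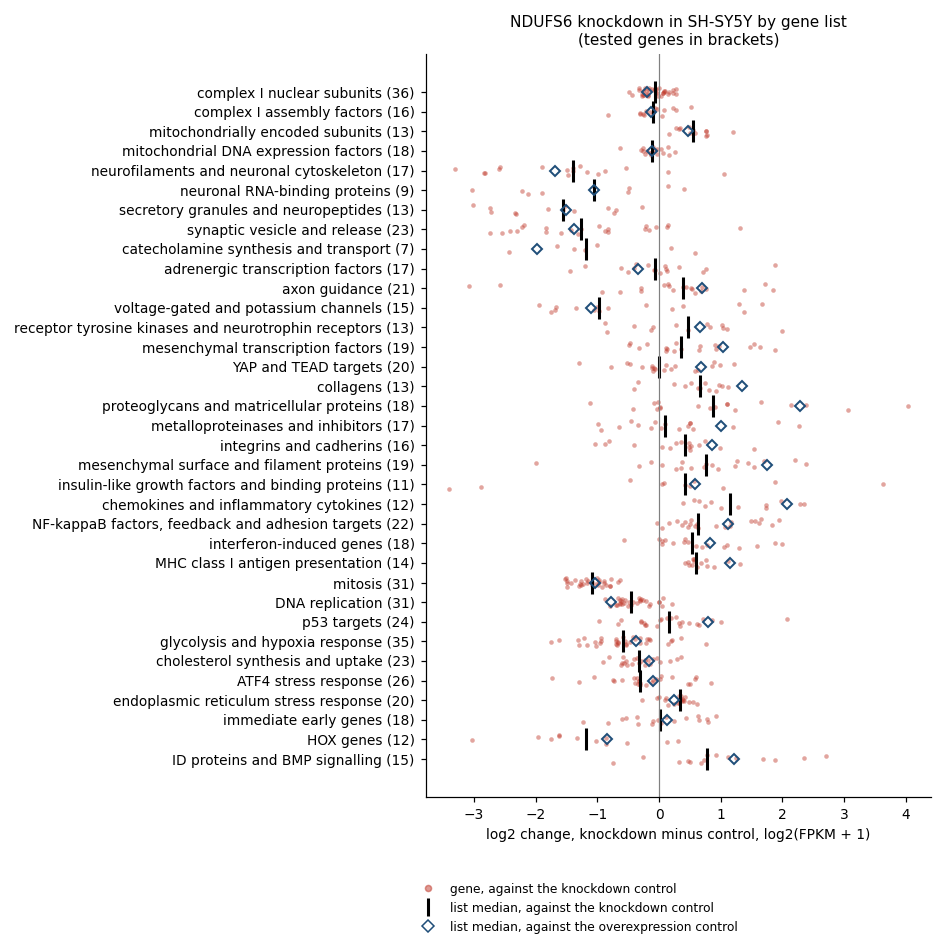
Log2 change of each tested gene (points) in 35 gene lists, knockdown minus its empty vector control on the log2(FPKM + 1) scale, with the list median (black bar) and the list median against the overexpression control (open diamond), zero at the grey line. The mitosis points all lie below 0. The medians of the neuronal cytoskeleton, RNA-binding, granule, synaptic, catecholamine and channel lists lie near -1 or below. The open diamonds of the collagen, proteoglycan and surface protein lists lie further above 0 than the black bars.

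Inflammatory genes were higher. Of 24 listed chemokines and cytokines 12 were tested and these 12 rose, with a median of 1.15, and of 22 tested NF-kappaB factors, feedback inhibitors and adhesion targets 20 rose and none fell, with a median of 0.63. In each list 2 members, CXCL1 and TNFAIP3 among them, passed the filter through the knockdown libraries alone, and without them 10 of 10 and 18 of 20 rose. The medians were 2.08 and 1.12 against the overexpression control. NF-kappaB is a family of factors held in the cytoplasm by inhibitors, which are themselves among its targets. The promoters below belong to called members and are shown because each holds the κB-type letters GGNNTTTCC (N any base), searched on both strands, with the matches in capitals. They are 100-base stretches from RefSeq (GRCh38.p14), 5′ to 3′ on the strand of the gene.

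CXCL8, chr4:73740432-73740531, plus strand: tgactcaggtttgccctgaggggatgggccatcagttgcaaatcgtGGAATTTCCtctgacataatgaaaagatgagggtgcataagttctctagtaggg
CXCL1, chr4:73869293-73869392, plus strand: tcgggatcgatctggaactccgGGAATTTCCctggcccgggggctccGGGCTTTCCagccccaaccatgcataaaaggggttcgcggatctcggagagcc
NFKBIA, chr14:35404777-35404876, minus strand: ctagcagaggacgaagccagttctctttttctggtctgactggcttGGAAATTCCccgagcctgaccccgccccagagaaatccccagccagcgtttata
VCAM1, chr1:100719634-100719733, plus strand: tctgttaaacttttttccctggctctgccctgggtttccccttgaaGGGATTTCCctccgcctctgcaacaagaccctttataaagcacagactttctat
TNFAIP3, chr6:137867158-137867257, plus strand: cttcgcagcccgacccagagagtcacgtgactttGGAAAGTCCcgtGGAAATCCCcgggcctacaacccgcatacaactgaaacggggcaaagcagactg

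In NFKBIA and TNFAIP3 the capitals read GGNNTTTCC on the opposite strand. Of the 32 called members of both lists, 25 matched an entry of the promoter table (250 bases before to 50 after the start), and 11 of these (44.0%) held the letters, against 1710 of 27305 promoters (6.26%). A match describes the sequence and was not tested as a binding site. The lists were written as chemokine and NF-kappaB genes, and only called members were searched. The share therefore does not bear on the effect of the knockdown.

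CXCL8, the neutrophil chemokine interleukin 8, was at 18.96, 18.5 and 25.2 FPKM in the knockdown, against 3.36, 3.53 and 3.50 FPKM in the control (2.28). CXCL12, a chemokine that guides cell migration, was at 11.3, 10.6 and 14.8 FPKM in the knockdown, against 1.62, 1.63 and 1.505 FPKM in the control (2.34). CCL2, the monocyte attractant and the most abundant of the list, was at 125, 125 and 153 FPKM in the knockdown, against 40.6, 40.5 and 37.2 FPKM in the control (1.74). No knockdown library of these genes came near a control library, though the third knockdown library was the highest for each of them. IL32 (1.98) and CXCL1 (1.73) also rose.

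NFKBIA, the inhibitor of NF-kappaB that the factor itself induces, was at 34.1, 39.0 and 35.4 FPKM in the knockdown, against 8.82, 10.0 and 9.29 FPKM in the control (1.84). TRAF1, an adaptor of tumour necrosis factor receptors, was at 6.22, 6.99 and 7.95 FPKM in the knockdown, against 0.925, 1.23 and 1.12 FPKM in the control (1.94). VCAM1, an adhesion molecule, was at 11.7, 12.0 and 10.9 FPKM in the knockdown, against 3.19, 2.87 and 2.84 FPKM in the control (1.66). The factors NFKB1, NFKB2 and RELB rose by 1.15, 0.59 and 1.62, RELA by 0.16 (not called under TPM, 0.08), and REL was not called (-0.03).

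Of 18 tested interferon-induced genes 13 rose and 1 fell, with a median of 0.54 (0.82 against the overexpression control). Of the 14 that reached 1 FPKM in both groups, 9 rose and 1 fell. IFITM3 was at 11.8, 11.4 and 11.3 FPKM in the knockdown, against 3.003, 2.23 and 2.07 FPKM in the control (1.88), although it and IFITM2 (1.99) are close copies whose separate values are uncertain. OAS3, a sensor of double-stranded RNA, fell (-0.57). All 14 tested genes of MHC class I antigen presentation rose, with a median of 0.59 (1.15 against the overexpression control). B2M, the invariant chain, was at 48.7, 48.6 and 51.5 FPKM in the knockdown, against 27.3, 25.3 and 26.6 FPKM in the control (0.88). HLA-B had the largest change of these (1.32), with the caveat that reads of HLA class I genes are hard to assign to one gene.

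Of 12 immune cell markers, 11 were under 1 FPKM in all 6 libraries, and CD3D, CD3E, MS4A1 and LYZ were at 0. PTPRC, the pan-leukocyte marker, averaged 0.064 FPKM in the knockdown and 0.0063 FPKM in the control. The 1 tested marker, CD68, a lysosomal protein, was at 8.59, 10.1 and 11.6 FPKM in the knockdown, against 1.68, 1.68 and 2.32 FPKM in the control (1.94). It accounts for nearly all of the summed level of the list, 9.32 to 12.0 FPKM in the knockdown and 2.11 to 2.78 FPKM in the control. Of 12 epithelial markers 2 were tested, 1 lower and none higher, and KRT5 and KRT14 were at 0. KRT18, a keratin, averaged 0.541 FPKM in the knockdown and 1.47 FPKM in the control (-0.68), but was higher than in the overexpression control (0.36). Of 12 endothelial markers 11 were under 1 FPKM in all 6 libraries. The tested one, EGFL7, averaged 3.23 FPKM in the knockdown and 5.97 FPKM in the control (-0.73) and was not called against the overexpression control (-0.30).

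Genes of mitosis were uniformly lower. All 31 tested members fell, with a median of -1.09 and a range of -1.53 to -0.64, and 18 fell at least 2-fold. Many mitotic genes share a cell cycle element with the letters TTTGAA just before their start, searched here on both strands and in capitals below, in RefSeq promoter stretches (GRCh38.p14) chosen to show the match.

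CCNB2, chr15:59105046-59105145, plus strand: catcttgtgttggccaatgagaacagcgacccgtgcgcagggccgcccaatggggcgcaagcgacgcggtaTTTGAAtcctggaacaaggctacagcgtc
PLK1, chr16:23678789-23678888, plus strand: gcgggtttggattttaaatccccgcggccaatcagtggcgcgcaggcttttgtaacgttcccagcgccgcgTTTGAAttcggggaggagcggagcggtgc
BUB1B, chr15:40160969-40161068, plus strand: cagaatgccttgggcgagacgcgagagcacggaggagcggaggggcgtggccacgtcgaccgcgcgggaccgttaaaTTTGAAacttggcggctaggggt
CDCA8, chr1:37692416-37692515, plus strand: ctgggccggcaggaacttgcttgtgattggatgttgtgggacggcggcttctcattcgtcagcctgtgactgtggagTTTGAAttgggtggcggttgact

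Of 26 members found in the promoter table, 18 (69.2%) held the letters within 250 bases before to 50 after the start, against 4212 of 27305 promoters (15.4%). The match began 29 bases before the start in CCNB2 and PLK1 and 23 bases before it in BUB1B and CDCA8. All tested members of this list were called, so the share could not be set against uncalled members. It does not bear on the effect of the knockdown.

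TOP2A, which untangles chromosomes, was at 59.3, 59.1 and 55.5 FPKM in the knockdown, against 171, 168 and 168 FPKM in the control (-1.53, SE 0.0635, limma adjusted p = 2.99e-14). MKI67, the proliferation marker Ki-67, was at 20.9, 21.5 and 17.6 FPKM in the knockdown, against 57.6, 57.9 and 58.1 FPKM in the control (-1.49). CCNB2, a mitotic cyclin, was at 10.4, 10.1 and 10.5 FPKM in the knockdown, against 25.4, 26.4 and 26.8 FPKM in the control (-1.26), and PLK1, a mitotic kinase, at 6.77, 6.92 and 6.65 FPKM in the knockdown, against 16.5, 16.9 and 16.4 FPKM in the control (-1.18). The groups were widely apart for all 4 genes. All 31 were also lower against the overexpression control, with a median of -1.03.

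Genes of DNA replication were lower too. Of 31 tested, 24 fell and 1 rose, with a median of -0.46 and none at 2-fold. PRIM1, the primase catalytic subunit, was at 8.41, 9.08 and 9.47 FPKM in the knockdown, against 16.5, 16.9 and 18.6 FPKM in the control (-0.88), and shares exons with NACA. The helicase subunits MCM5 and MCM6 averaged 6.73 and 23.4 FPKM in the knockdown and 6.71 and 23.5 FPKM in the control and were not called, whereas MCM2 and MCM3 fell (-0.57 and -0.49). Against the overexpression control all 31 were lower, MCM5 and MCM6 included (-0.73 and -0.92), with a median of -0.77.

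Targets of p53 were mixed, 12 of 24 tested higher and 7 lower (median 0.15). CDKN1A, the p21 inhibitor of cyclin-dependent kinases, was at 69.9, 70.4 and 86.5 FPKM in the knockdown, against 51.0, 47.0 and 45.5 FPKM in the control (0.64). TP53I3, an oxidoreductase, was at 17.3, 17.7 and 20.4 FPKM in the knockdown, against 3.69, 3.46 and 3.78 FPKM in the control (2.07). PMAIP1, a pro-apoptotic BH3 protein, fell (-0.97). The knockdown control itself was above the overexpression control for this list (median 0.58), and against the overexpression control 21 were higher and 2 lower in the knockdown.

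Genes of glycolysis and the hypoxia response fell together. Of 35 tested, 29 fell and 4 rose, with a median of -0.59 and 8 at least 2-fold lower. HK2, the inducible hexokinase, was at 8.22, 8.78 and 8.21 FPKM in the knockdown, against 30.2, 30.7 and 30.7 FPKM in the control (-1.75). SLC2A1, the glucose transporter GLUT1, was at 3.74, 3.77 and 3.65 FPKM in the knockdown, against 10.3, 9.31 and 10.2 FPKM in the control (-1.21). LDHA, lactate dehydrogenase A, was at 48.8, 51.3 and 53.1 FPKM in the knockdown, against 105, 104 and 109 FPKM in the control (-1.04). No knockdown library overlapped a control library in these genes, and EGLN3, an oxygen-sensing hydroxylase, rose (0.76).

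The size of these falls depended on the control. Against the overexpression control 26 of the 35 were lower and 7 higher, with a median of -0.37, and 2 were at least 2-fold lower in place of 8. HK2 averaged 16.6 FPKM in that control, so its log2 difference was -0.90, while those of SLC2A1 and LDHA, at -1.16 and -0.95, were close to the values above.

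Cholesterol synthesis and uptake genes were 17 lower and 3 higher of 23 tested, with a median of -0.32. The overexpression control gave 12 lower and 5 higher, with a median of -0.17. SREBF2, the transcription factor that controls the pathway, was at 7.57, 7.27 and 6.72 FPKM in the knockdown, against 13.5, 13.01 and 13.3 FPKM in the control (-0.80).

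Targets of ATF4, the factor of the integrated stress response that respiratory chain defects are known to induce, were not higher as a group. Of 26 tested, 5 rose and 13 fell, with a median of -0.31. The overexpression control gave 8 higher and 10 lower, with a median of -0.10. ATF4 itself was at 43.5, 41.8 and 46.0 FPKM in the knockdown, against 30.7, 31.1 and 30.4 FPKM in the control (0.50), and TRIB3 and CEBPB rose (0.60 and 0.85). The serine and amino acid genes PHGDH, PSAT1 and MTHFD2 fell (-0.75, -0.60 and -0.32), and the secreted stress marker GDF15 was not called (-0.32, adjusted p = 0.125). Without the third knockdown library GDF15 was called lower (-0.53, adjusted p = 0.0115), and against the overexpression control it was higher (2.05). STC2 fell most, to 0.595, 0.721 and 0.723 FPKM in the knockdown, against 4.45, 4.88 and 4.43 FPKM in the control (-1.73). It passed the filter through the control libraries alone. Of the 25 members that reached 1 FPKM in both groups, 5 rose and 12 fell.

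DDIT4, an inhibitor of mTORC1 that hypoxia and ATF4 both induce, depended on the control. It was at 13.6, 13.5 and 13.6 FPKM in the knockdown, against 35.3, 33.5 and 36.0 FPKM in its control (-1.30) and 5.88, 7.09 and 6.499 FPKM in the overexpression control (0.96, adjusted p = 5.31e-10). The knockdown thus lay between the controls.

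Chaperones and folding factors of the endoplasmic reticulum were modestly higher, 14 of 20 tested, with 1 lower and a median of 0.34. Against the overexpression control 12 were higher and none lower, with a median of 0.24. Overexpression against its own control gave 10 higher and none lower, also with a median of 0.24, where 16.9% of all genes were higher. HSPA5, the master chaperone BiP, was at 89.2, 89.7 and 96.1 FPKM in the knockdown, against 70.8, 69.0 and 69.3 FPKM in the control (0.39), but level with the overexpression control (0.03, adjusted p = 0.658). CALR, calreticulin, was at 231, 234 and 249 FPKM in the knockdown, against 156, 149 and 160 FPKM in the control (0.62). Immediate early genes were evenly split, 6 of 18 tested higher and 6 lower, and their median of 0.01 turned to -0.07 under TPM. DUSP6, a phosphatase induced by ERK signalling, fell to 4.37, 4.89 and 4.53 FPKM in the knockdown, against 12.0, 12.4 and 12.1 FPKM in the control (-1.24).

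NDUFS6 knockdown in SK-N-BE(2), where NDUFS6 averaged 1.33 FPKM in the knockdown and 11.2 FPKM in the control (log2 change -2.38), gave other values for several of these lists. The log2 change of NDUFS6 in SH-SY5Y minus that in SK-N-BE(2) was 1.05 (limma adjusted p = 1.73e-05), so the target was reduced less in SH-SY5Y. The difference between the lines was called for 8345 of 14281 genes (58.4%). The SH-SY5Y change was the higher in 47.4% of these calls on the FPKM scale and in 29.9% under TPM. In SK-N-BE(2) 28.5% of genes rose and 29.3% fell. The ATF4 list was 26 higher and none lower of 26 in SK-N-BE(2), with a median of 1.82, against a median of -0.31 in SH-SY5Y. The endoplasmic reticulum list was 20 higher of 20, with a median of 2.38.

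HSPA5 showed this gap, with a log2 change of 0.39 in SH-SY5Y and 3.83 in SK-N-BE(2), a difference of -3.44 (limma adjusted p = 1.38e-18). For DDIT3, the stress factor CHOP, the changes were -0.11 in SH-SY5Y and 5.99 in SK-N-BE(2), a difference of -6.10. In SH-SY5Y DDIT3 was not called against its own control (but -0.32, adjusted p = 0.0257, without the third knockdown library) and was higher than the overexpression control (0.97). The mitochondrially encoded subunits also went opposite ways, with a median of 0.55 in SH-SY5Y and -0.49 in SK-N-BE(2), where 12 of 13 fell. MT-CYB differed by 1.82 between the lines.

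The neuronal cytoskeleton list was not lower in SK-N-BE(2). It had a median of 0.57 there, with 12 of 17 higher and 3 lower, and NEFM differed by -4.15 between the lines (adjusted p = 5.27e-20). The mitosis list was lower in both, with a median of -0.89 and 30 of 31 lower in SK-N-BE(2). MKI67 had changes of -1.49 in SH-SY5Y and -1.80 in SK-N-BE(2), and the difference was not called (0.31, adjusted p = 0.252). IGFBP3 rose in both lines, by 3.63 in SH-SY5Y and 4.21 in SK-N-BE(2). The adrenergic transcription factors had a median of -0.07 in SH-SY5Y and -0.89 in SK-N-BE(2), where 14 of 17 fell.

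**Figure D3:**
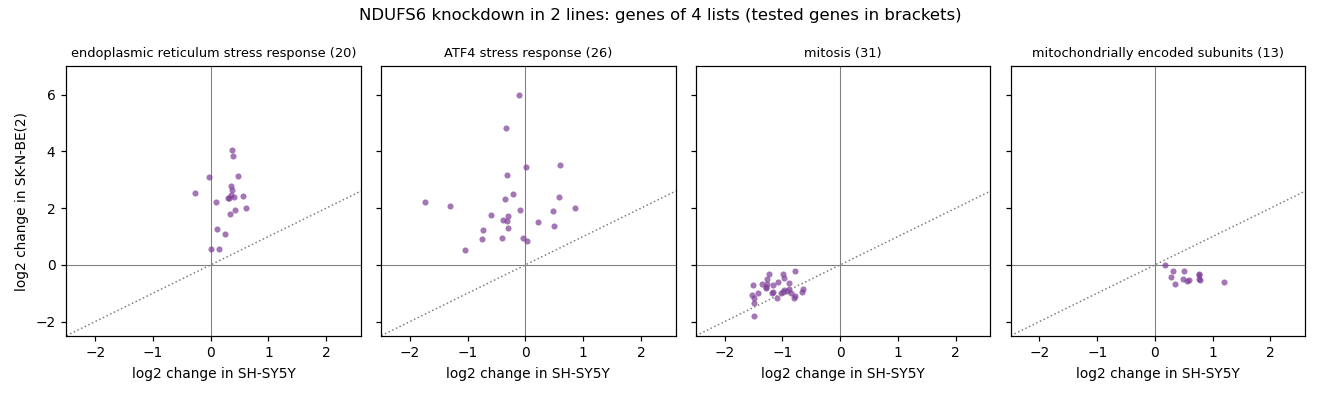
Log2 change by NDUFS6 knockdown in SH-SY5Y (x axis) and in SK-N-BE(2) (y axis) for each tested gene of 4 lists, with the line of equal change dotted. The 20 endoplasmic reticulum and 26 ATF4 genes lie above 0 in SK-N-BE(2) with x values between -2 and 1. The mitosis genes lie below 0 in SH-SY5Y. The mitochondrially encoded subunits lie right of 0 and mostly below it.

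Overexpression of NDUFS6 in SH-SY5Y, to 208 ± 7.74 FPKM, against 10.96 ± 0.679 FPKM in its control (SD, n = 3 each), moved few genes by 2-fold. Overexpression raised 20 genes (0.140%) and lowered 36 (0.252%) at least 2-fold, and 5129 (35.9%) were called in all, 16.9% higher and 19.0% lower. Knockdown and overexpression were each set against its own control and share no library. Of 3675 genes called in both, 2614 moved in the same direction and 1061 in opposite directions. Of the 409 genes at least 2-fold higher in the knockdown, 103 were higher and 42 lower under overexpression, and of the 628 at least 2-fold lower (NDUFS6 left out), 319 were lower and 53 higher. Mitosis (median 0.10, 11 higher and none lower) and DNA replication (0.27, 24 higher and 1 lower) were on the other side of 0 under overexpression, while the neurofilament list was lower under both (-0.29, 13 lower and 2 higher).

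The knockdown change minus the overexpression change was called for 46.6% of genes. It was furthest below 0 for ARHGAP36 (-3.75), H19 (-3.67) and VIP (-3.38) among the genes named here other than NDUFS6, and furthest above 0 for MAB21L2 (4.53), LRRC17 (4.19) and C7 (4.03), with limma adjusted p values of at most 7.78e-13. Under overexpression their own log2 changes lay between -0.42 for C7 and 0.37 for VIP.

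The 2 empty vector controls were not alike, which bears on the matrix, inflammatory and catecholamine lists. The knockdown control minus the overexpression control was called for 5602 genes (39.2%), and 189 (1.32%) were at least 2-fold higher and 37 (0.259%) at least 2-fold lower in the knockdown control. The median of this difference was 1.18 for the mesenchymal surface list, 0.99 for proteoglycans, 0.78 for collagens and 0.68 for chemokines, against -0.39 for the neuronal cytoskeleton and 0.08 for mitosis. COL3A1 (2.50), DDIT4 (2.26) and COL5A1 (2.22) were far above 0, and CHGB (-1.19), UNC5C (-0.98) and DDC (-0.96) below it. How the controls differed in vector, infection or culture time is not stated in the sources, and its part in the knockdown difference was not tested.

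Most large changes were seen against either control. The same knockdown libraries were set against each control, so the calls and signs shared below are not independent support. Of the 1038 genes called at 2-fold, 1011 were called in the same direction against the overexpression control, where 61.9% of all genes were called. At 2-fold again were 830 (80.0% of the 1038), and the sign differed for 10, whether or not these were called. In that comparison 776 genes (5.43%) were at least 2-fold higher and 684 (4.79%) at least 2-fold lower. All list medians named above as lower for neuronal, mitosis, DNA replication, glycolysis and HOX genes, and as higher for matrix, inflammatory and BMP genes, kept their sign against the overexpression control and under TPM.

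**Figure D4:**
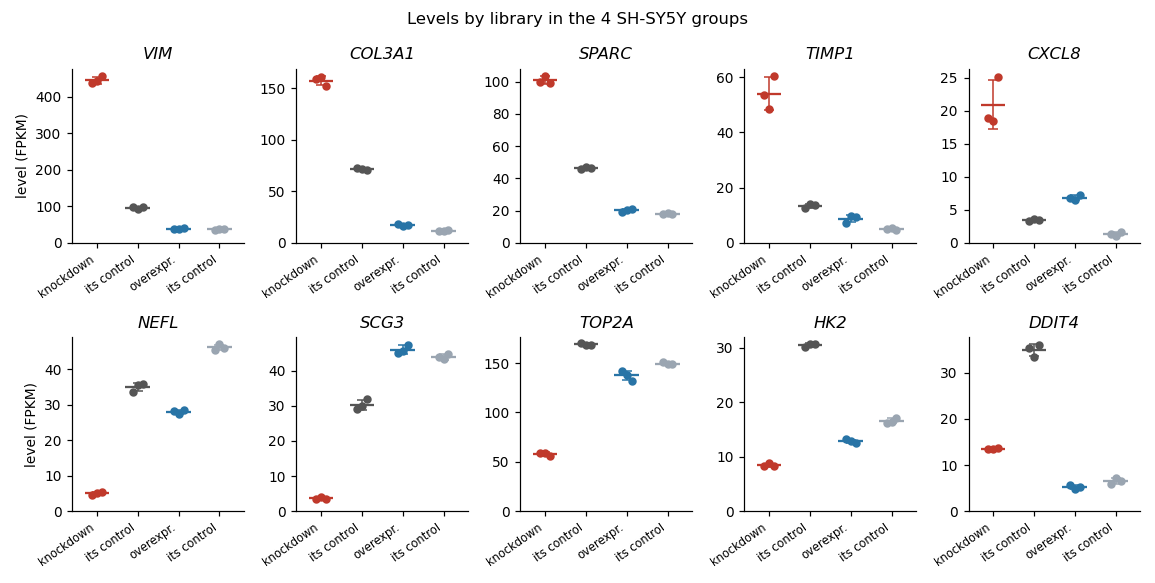
FPKM per library (points) with mean and SD (bars) in the 4 SH-SY5Y groups, from left to right knockdown, its control, overexpression and its control, for 10 genes, each panel on its own linear axis from 0. VIM and COL3A1 step down from the knockdown through its control to the other groups, NEFL, SCG3 and TOP2A are low in the knockdown and high in the other 3 groups, and DDIT4 is highest in the knockdown control.

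The changes were spread over the genome. Median log2 changes per nuclear chromosome ran between -0.11 on chromosome 18 and 0.02 on chromosome 11. Chromosome 19 had the lowest share of genes higher in the knockdown, 19.5%, beside 35.4% lower. Chromosome 18 had the highest share of genes lower, 41.6%, beside 26.4% higher. Protein-coding genes were 30.1% higher and 33.9% lower, and long intergenic non-coding RNAs 119 higher and 107 lower of 410 tested.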

How the data were processed

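RNA was taken with TRIzol and strand-specific libraries were sequenced on an Illumina NovaSeq, per the labels' protocols. FastQC 0.11.2, STAR and StringTie 1.3.1c with the hg38 build stand in the submitters' processing notes, without roles or settings. The authors deposited FPKM values per gene for 24 libraries, with no counts, so no count model was used. FPKM divides by each library's total, so abundant mitochondrial transcripts affect every other gene's value, which the scaling alternatives address. Gene positions and shared exons came from GENCODE 29 and promoters from RefSeq.

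Values were tested as log2(FPKM + 1), which understates changes of genes at low level, with limma 3.58.1 (R 4.3.3; trend and robust moderation, 8 groups, 16 residual degrees of freedom, two-sided). P-values were adjusted by Benjamini-Hochberg over the 14281 genes with 1 FPKM in at least 3 of the 6 libraries, and a gene was called at an adjusted p under 0.05. The fit was tested on simulated data. The members, comparisons and gene lists were chosen with earlier results of these data known, and most lists are of textbook pathways and cell type markers.

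Named genes were NDUFS6, the 12 largest called rises and falls with a mean of at least 1 FPKM and no overlap between libraries, up to 4 called members per list with the largest changes, genes near 0 in one group, and 3 genes per direction for each further comparison. Further list members were named after their values were seen, for their role or because they went against their list. A few genes that the rule chose are not reported here. Lists are described by counts and medians, with no set test. Alternatives covered the pseudocount, filters on low values, scaling, the libraries in the fit, moderation, the other control, a replicate block and each library left out.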

Additional observations from a re-analysis of the deposited data

Results flagged for a closer look

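The knockdown change in SH-SY5Y minus that in SK-N-BE(2) was tested in the same limma fit and was called for 8345 genes. All differences below were called. NDUFS6 had log2 changes of -1.33 in SH-SY5Y and -2.38 in SK-N-BE(2), a difference of 1.05, so the size of the knockdown itself was unequal between the lines, and its part in the other differences was not tested.

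Among the genes named for the knockdown, BEND4 had log2 changes of -2.94 in SH-SY5Y and 1.61 in SK-N-BE(2), a difference of -4.54. NEFM had -3.30 in SH-SY5Y and 0.85 in SK-N-BE(2), a difference of -4.15. STC2, a secreted glycoprotein, had -1.73 in SH-SY5Y and 2.23 in SK-N-BE(2), a difference of -3.96. These 3 genes fell in SH-SY5Y and rose in SK-N-BE(2).

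In the other direction, MAB21L2 had log2 changes of 4.48 in SH-SY5Y and -0.49 in SK-N-BE(2), a difference of 4.97. KCTD12 had 3.34 in SH-SY5Y and -1.57 in SK-N-BE(2), a difference of 4.91. AC114284.1 had 3.30 in SH-SY5Y and -0.86 in SK-N-BE(2), a difference of 4.15. MAB21L2 was already expressed in SK-N-BE(2), at 54.8 FPKM in the knockdown and 77.3 FPKM in the control, against 0.134 FPKM in the SH-SY5Y control.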

How the results depend on the processing

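NDUFS6 was called lower under every alternative run, with log2 changes of -1.46 to -1.19 when single libraries were left out. Leaving out single libraries gave 7988 to 8088 called genes, and a mitochondrial share 5.26 to 6.13 percentage points higher. Requiring a mean of 5 FPKM tested fewer genes and left 4713 calls, 2301 higher and 2412 lower, with 207 and 257 at 2-fold. A pseudocount of 0.1 gave 726 higher and 1051 lower at 2-fold, TPM gave 1128 lower at 2-fold, and the overexpression control gave 776 higher at 2-fold. For the difference between the lines, the mean of 5 FPKM left 4632 calls, 2206 higher and 2426 lower, with 299 and 424 at 2-fold. There the pseudocount of 0.1 gave 1022 and 1559 at 2-fold, and TPM gave 2513 higher of any size and 1850 lower at 2-fold.

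The replicate numbers were not used to pair the samples. Same-numbered libraries had correlations of 0.00148, 0.0365 and 0.00857, and 1 of 3 knockdown libraries correlated best with its own number. Whether libraries were prepared in matched sets is not stated, and these values cannot show it. With the replicate block, fitted to the 6 libraries, 8695 genes were called, and NDUFS6 stayed at -1.33.

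Of 4117 values for the 232 other named genes over 18 alternatives, 4053 had the same direction and call, 16 lost their call, 17 gained one and 31 changed sign. A few genes named above were outside the 232, among them CCN1, which also changed sign against the overexpression control. The log2 differences that follow are for the 232. Against the overexpression control the log2 differences with changed sign were -0.00156 for ISL1, 2.22 for TNC, 0.474 for TGFB2, 1.01 for TIMP3, -0.729 for MCM5, 0.357 for KRT18, 0.0261 for SMAD5, 2.05 for GDF15, 1.18 for ANKRD1, -0.0833 for ELAVL4, 0.103 for REL, 0.014 for HAND2, 0.962 for DDIT4 and 0.966 for DDIT3. Under TPM they were -0.0904 for MCM5 and -0.0862 for FN1. With median ratio scaling they were 0.0159 for TNC and 0.0277 for MCM6, and without mitochondrially encoded genes 0.0114 for TNC and 0.0233 for MCM6. With single libraries left out the ranges that crossed 0 were -0.0304 to 0.00232 for TNC, -0.0235 to 0.0208 for MCM5, -0.0158 to 0.00447 for MCM6, -0.198 to 0.0408 for ANKRD1, -0.105 to 0.102 for REL and -0.316 to 0.0782 for DDIT3. The cause of these changes was not tested. Depth is unknown, so precision rests on the spread within groups of 3 libraries, pooled over the 8 groups of the fit.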
